A study of Homo sapiens with 32 samples.

Results

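Levels of miR-99a, miR-99b, miR-100, miR-125a and miR-125b were followed in small RNA libraries of 293T, an easily transfected line of human embryonic kidney origin that expresses SV40 large T antigen. These miRNAs were chosen because their hairpins lie in the same primary transcripts as hairpins of let-7. They correspond to 5 of the 1513 miRNA rows of the deposited count table, and each of the 5 names matched 1 row. A row held the reads of a whole hairpin, both arms together, and the mir-125b row held the products of both of its loci.

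The cells came from 8 clones, 4 wild type (WT, clones 52, 55, 57 and 67) and 4 of the genotype DGCR8 delta103-126Q (BSdel, clones 30, 34, 42 and 43), in which prime editing had removed the reported contact site of the protein ERH. DGCR8 is the RNA-binding subunit of the Microprocessor, and ERH is a small nuclear protein. Each clone received 4 vectors, control shRNA 1 and 2, which target nothing, and shERH 1 and 2, which target ERH, giving 32 libraries in 8 groups of 4. All cells, controls included, were transiently transfected, selected with puromycin and sorted on day 5 for a fluorescent marker of the vector. Counts of the 2 vectors of an arm were added per clone, so that each of the 4 combinations of genotype and arm is described by 4 clones. Neither ERH mRNA nor the edited DGCR8 sequence was analysed here, so the knockdown and the genotype were taken from the labels.

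A miRNA hairpin is cut out of its primary transcript by the Microprocessor, which consists of the nuclease DROSHA and DGCR8, and is then cut by DICER to the mature miRNA. The mature miRNA guides an Argonaute protein to target mRNAs, mainly through its seed, the bases 2 to 8. The miR-99/100 family is known for targeting MTOR and IGF1R, and the miR-125 family, relatives of the nematode lin-4, for targeting LIN28 mRNAs. The let-7 family represses LIN28 too, and LIN28 proteins bind let-7 precursors and block their maturation. ERH has been described as a cofactor through which the Microprocessor cuts weak hairpins that lie next to stronger ones.

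The mature sequences are shown because the families, and the risk of exchanged reads within them, follow from single bases. They were copied from RefSeq (GRCh38.p14), in which all 5 members matched a mature sequence. Capitals mark the seed.

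miR-99a-5p: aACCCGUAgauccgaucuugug

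miR-99b-5p: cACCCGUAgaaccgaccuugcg

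miR-100-5p: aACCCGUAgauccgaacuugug

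miR-125a-5p: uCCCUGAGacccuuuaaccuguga

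miR-125b-5p: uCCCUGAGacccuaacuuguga

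let-7a-5p: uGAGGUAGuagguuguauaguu

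let-7c-5p: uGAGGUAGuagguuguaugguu

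let-7e-5p: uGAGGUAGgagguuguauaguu

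The seed ACCCGUA was shared by miR-99a, miR-99b and miR-100 and by no other of the 2370 mature sequences in the table. The seed CCCUGAG was shared by miR-125a, miR-125b and miR-4319. Counted from the 5′ end, miR-99a differed from miR-100 by the substitution U16A, with the base of miR-99a first. From miR-99b it differed by A1C, U11A, U16C and U21C. The miR-125 pair was identical over the first 13 bases and then diverged, with 24 bases in miR-125a and 22 in miR-125b. Among the partners, let-7a differed from let-7c by A19G and from let-7e by U9G. Reads of miR-99a and miR-100, and of let-7a with let-7c or let-7e, could therefore be exchanged by 1 base error, and how the submitters assigned such reads was not given in the sources used here.

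The members fall into 3 clusters (GRCh38, GENCODE release 29; the build behind the counts was not given in the sources used here). The cluster on chromosome 19 held MIR99B (51692612 to 51692681), MIRLET7E 104 bases further (51692786 to 51692864) and MIR125A another 389 bases further (51693254 to 51693339). All lay on the plus strand in an intron of SPACA6, and overlapped an exon of SPACA6P-AS on the opposite strand. On chromosome 21, plus strand, MIR99A (16539089 to 16539169) and MIRLET7C (16539828 to 16539911) lay 658 bases apart, and MIR125B2 (16590237 to 16590325) followed after 50325 bases. These lay in an intron of the long noncoding RNA MIR99AHG. On chromosome 11, minus strand, MIR100 (122152229 to 122152308) was followed by MIRLET7A2 (122146522 to 122146593) after 5635 bases and by MIR125B1 (122099757 to 122099844) after 46677 bases, in an intron of MIR100HG. The table did not separate MIR125B1 from MIR125B2, nor MIRLET7A2 from the other loci of let-7a.

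**Figure D1:**
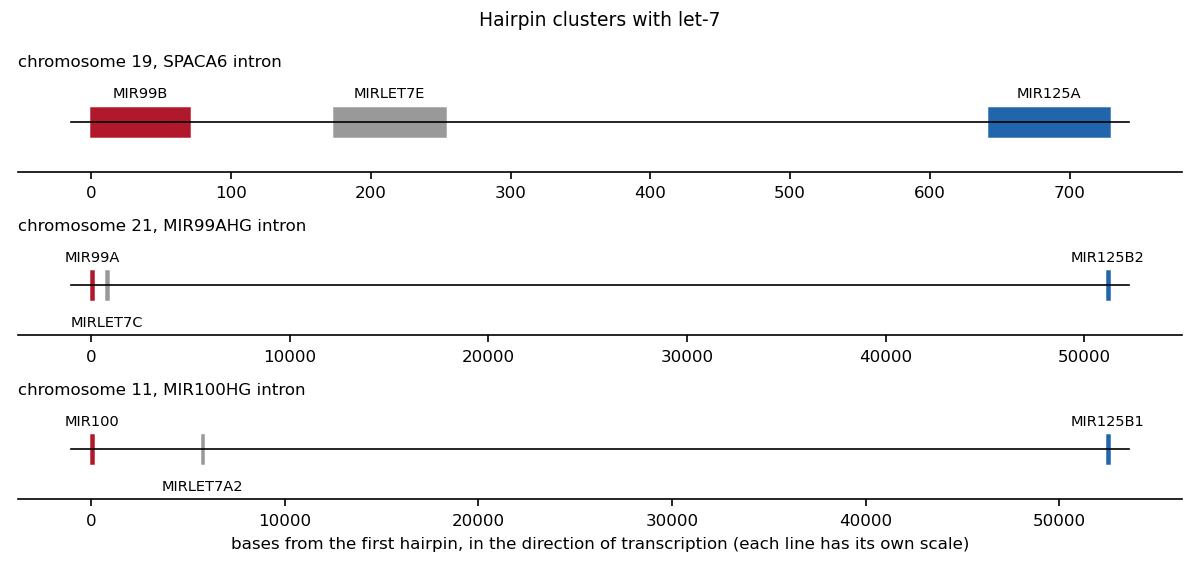
Position of the hairpins along each cluster in bases from the first hairpin, read in the direction of transcription, with miR-99/100 hairpins in red, let-7 in grey and miR-125 in blue. The chromosome 19 hairpins are separated by gaps of 104 and 389 bases, while MIR125B2 and MIR125B1 lie 50325 and 46677 bases after the let-7 hairpin before them; each line has its own scale.

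The hairpins on which the Microprocessor acts are shown for the members because the labels name a Microprocessor subunit as the altered protein. Capitals mark the mature 5′ arm. They come from RefSeq (GRCh38.p14), and MIR125B2 is named only.

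MIR99B: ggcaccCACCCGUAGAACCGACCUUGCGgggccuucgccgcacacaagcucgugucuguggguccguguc

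MIR125A: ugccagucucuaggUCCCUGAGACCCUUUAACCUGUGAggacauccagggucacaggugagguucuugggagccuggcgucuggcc

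MIR99A: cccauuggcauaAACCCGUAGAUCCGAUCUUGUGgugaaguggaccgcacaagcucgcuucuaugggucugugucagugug

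MIR100: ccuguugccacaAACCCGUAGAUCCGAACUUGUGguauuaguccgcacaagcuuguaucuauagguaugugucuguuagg

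MIR125B1: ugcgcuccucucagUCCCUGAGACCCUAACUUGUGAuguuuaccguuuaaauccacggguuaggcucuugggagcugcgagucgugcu

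The predicted minimum free energy (RNAfold) was lowest for MIR125A, at -46.2 kcal/mol over 86 bases, followed by MIR125B1 at -41.1 over 88 bases and MIR99A at -39.5 over 81 bases. MIR99B, at -29.4 over 70 bases, and MIR100, at -25.7 over 80 bases, were predicted to fold less stably. GC content was highest in MIR99B, at 67.1%, above the upper quartile of 60.6% over 1562 RefSeq hairpins. MIR100 had the lowest, at 46.3%.

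Libraries held 1318923 to 6222790 miRNA counts and 9139 to 33090 spike-in counts. Per library, the mir-125a row held 12178 to 56201 counts, mir-125b 7555 to 36267, mir-99b 3108 to 14597 and mir-99a 1141 to 7433, so that counting error was small for these 4. The mir-100 row held only 2 to 51. The 6 rows fixed as typical of epithelial and embryonic kidney lines were all detected. Their summed level under control shRNAs was 205252 to 257656 CPM in WT clones and 132726 to 199864 in BSdel clones, without overlap. Of the 536 single rows tested for the deletion, 6.72% lay apart downward too. The sums were taken only on the scale described below. The 13 rows typical of blood, muscle, liver, neuron or fibroblast summed to 5658 to 9977 CPM in WT and 4213.5 to 11883 in BSdel clones under control shRNAs, with mir-9 the largest of them at 3069 to 9116 CPM over all sums. Of these 13, mir-206 was listed at 0 in 23 libraries, mir-145 in 9, and mir-150, mir-144 and mir-451a in 1 each. The blood row mir-142 was highest in the control sum of BSdel clone 30, at 2161 CPM, as were mir-223 (258 CPM) and mir-150 (6.08 CPM). The blood rows mir-144 and mir-451a were not, at 6.49 and 8.31 CPM there. Their control sums reached 12.7 CPM in WT clone 52 for mir-144 and 28.1 CPM in BSdel clone 34 for mir-451a. The part of these rows in the results below was not tested. Over 314 well-counted rows the 4 libraries of clone 57 stood apart on the second principal component, at -11.0 to -9.16 against -5.33 to 5.46 for the other 28, though not over a stricter set of 258 rows, so results are also given without it.

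Levels below are CPM, counts per 1000000 miRNA counts after TMM scaling, a scaling that sets the bulk of rows equal between samples. CPM used TMM over all rows of the 16 sums, while each fit computed TMM anew on the rows and samples it tested. Fitted log2 changes therefore differ somewhat from those read from CPM. For mir-125b with shERH in WT clones the mean change was -0.42 by CPM and -0.51 in the fit. In each of the 16 sums the order was mir-125a, mir-125b, mir-99b, mir-99a and mir-100. The mature products have nearly the same length, but ligation preferences also act on such an order. The 5 rows together made up 2.14% ± 0.236 of miRNA counts in WT clones with control shRNAs and 2.06% ± 0.612 in WT clones with shERH (SD, n = 4). In BSdel clones the shares were 1.78% ± 0.131 with control shRNAs and 1.98% ± 0.203 with shERH.

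The deletion, with control shRNAs, was compared first, to ask how the members stood in cells whose DGCR8 lacks the reported ERH contact site. In BSdel clones 3 rows fell on the TMM scale, mir-125a, mir-125b and mir-99b. mir-99a and mir-100 did not pass the threshold, an edgeR quasi-likelihood p under 0.05 after Benjamini-Hochberg adjustment over all rows tested. The count of 3 of 5 lower stands beside 7.09% of the 536 rows tested that fell and 25.9% that passed in either direction. The members' median log2 difference was -0.63, against -0.03 over all rows tested.

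The mir-125a row, which in this cell line is the most abundant member, stood at 12833, 9425, 13497 and 12326 CPM in WT clones 52, 55, 57 and 67. In BSdel clones 30, 34, 42 and 43 it stood at 8766, 7985, 6670.1 and 7880.3 CPM. On the TMM scale every BSdel clone was below every WT clone, as in 6.72% of all rows tested. As shares of total miRNA counts, BSdel clones 30 and 34 lay above WT clone 55. The log2 difference was -0.74 (SE 0.17, 95% interval -1.10 to -0.38, adjusted p = 0.00922). Without clone 57 it was -0.57 with an adjusted p of 0.0510, so the call ended.

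For mir-125b, the WT clones in the same order had 8195, 7599.7, 9439 and 6848 CPM and the BSdel clones 6119.9, 5125, 5076 and 5281. Here too the groups did not overlap on the TMM scale, a state reached downward by 6.72% of all rows tested. As shares of total miRNA counts these groups stayed apart, but relative to spike-in counts they overlapped. The log2 difference was -0.70 (SE 0.17, 95% interval -1.07 to -0.33, adjusted p = 0.0128). This call also ended without clone 57, at -0.49 with an adjusted p of 0.0717, and with the shRNA 2 libraries alone, at -0.65 and 0.0512.

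The mir-99b row, first of the chromosome 19 cluster, had 3898, 2627, 3791 and 4309 CPM in WT clones and 2466, 2624, 2870.2 and 2271 in BSdel clones. WT clone 55 lay inside the BSdel range. The log2 difference of -0.63 (SE 0.19) passed with an adjusted p of 0.0297. Leaving out clone 30 (-0.56, adjusted p = 0.0826), 34 (-0.64, 0.0607), 43 (-0.58, 0.0878), 52 (-0.66, 0.0593), 57 (-0.51, 0.113) or 67 (-0.49, 0.118) ended the call. So did the shRNA 2 libraries alone (-0.53, 0.149), a mean of at least 100 counts (-0.47, 0.0894) and no filter (-0.61, 0.0721). The calls of mir-125a and mir-125b held without clone 30, the clone highest in mir-142, at -0.75 (adjusted p = 0.0171) and -0.71 (0.0211).

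The chromosome 21 member mir-99a had 1441, 2131, 2366 and 1564 CPM in WT clones and 1292, 1495, 1483 and 1591 in BSdel clones, so that the groups overlapped. Its log2 difference was -0.49 (95% interval -0.97 to -0.01, adjusted p = 0.117), an interval that still allows a difference as large as that of mir-125a. With the shRNA 1 libraries alone it passed, at -0.77 (0.0438). The scarce mir-100 had 6.22, 18.5, 9.11 and 4.10 CPM in WT clones and 4.46, 11.7, 8.78 and 14.0 in BSdel clones. With these few counts the log2 difference of -0.10 had an interval of -1.17 to 0.98, and no difference was detectable at this depth.

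None of the 3 let-7 partners passed in the deletion, though let-7c did with shRNA 1 alone (-0.65, adjusted p = 0.0400) and without clone 30 (-0.72, 0.0389). Their log2 differences were -0.37 for let-7e (adjusted p = 0.115), -0.54 for let-7c (0.100) and -0.34 for let-7a (0.204). The control sums of let-7e did not overlap on the TMM scale, at 2223 to 2592 CPM in WT and 1738 to 2153 CPM in BSdel clones. Of all rows tested 6.72% lay apart downward too. As shares of total miRNA counts the let-7e groups overlapped. Of the other 6 let-7 rows, 0 passed, with a median of -0.07. In the related miR-10 family, mir-10a (-0.55) and mir-10b (-0.71, adjusted p = 0.0587) did not pass either.

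**Figure D2:**
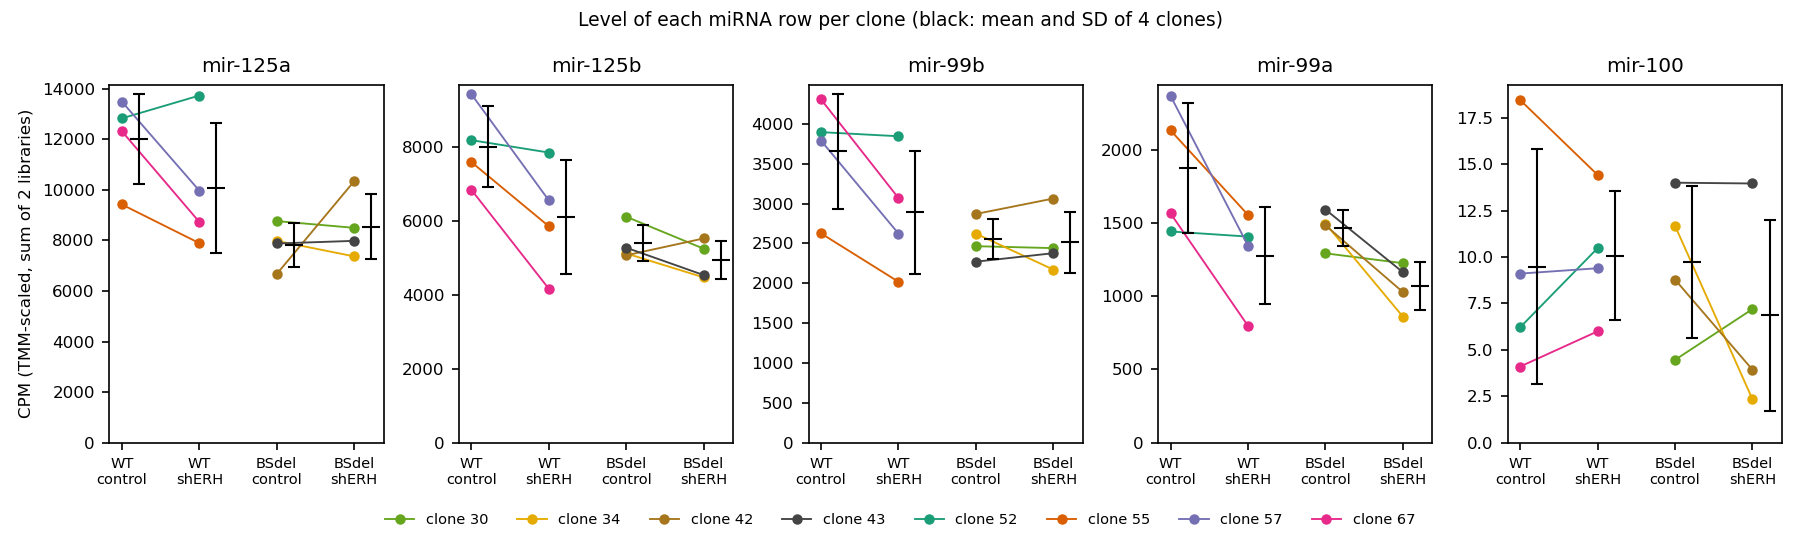
CPM of each member per clone (points, lines join the control and shERH sums of a clone) in the 4 combinations of genotype and shRNA arm, with black marks for the mean and SD of 4 clones; each axis starts at 0. CPM are on the TMM scale. In the control columns the BSdel clones lie below all WT clones for mir-125a (at most 8766 against at least 9425 CPM). The same holds for mir-125b (at most 6119.9 against at least 6848 CPM). From control to shERH, mir-99a goes down in each of the 8 clones. As shares of total miRNA counts the mir-125a groups overlap, and mir-99a does not go down in every clone.

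ERH knockdown was then compared with control shRNAs within clones, to ask how the members respond when ERH is lowered. Over all 8 clones mir-99a and mir-125b fell on the TMM scale, mir-125b turning to 0.12 by spike-in scaling, while mir-99b, mir-100 and mir-125a did not pass. The 2 of 5 that fell stand beside 16.5% of the 667 rows tested that fell and 36.6% that passed in either direction. The members' median log2 change was -0.26, against 0.06 over all rows.

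With shERH, mir-99a stood at 1406, 1554, 1343 and 796.4 CPM in WT clones 52, 55, 57 and 67, and at 1225, 859.5, 1027 and 1163 in BSdel clones 30, 34, 42 and 43. On the TMM scale it was lower than in the control sum of the same clone in 8 of 8 clones, as were 7.35% of all rows. The change on this scale ran from -0.04 in clone 52 and -0.08 in clone 30 to -0.97 in clone 67. As a share of total miRNA counts, mir-99a was higher with shERH in clones 52 and 30. Relative to spike-in counts it was higher in clones 52, 67 and 42. The fitted log2 change was -0.58 (SE 0.13, 95% interval -0.84 to -0.32, adjusted p = 0.00134), and it passed without any one clone, between -0.66 and -0.52. Without the clone block the same change, -0.59, had an adjusted p of 0.0664.

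The mir-125b row had 7859, 5861, 6562 and 4168 CPM in WT clones and 5253, 4476, 5532 and 4539 in BSdel clones with shERH. On the TMM scale it was lower in 7 of 8 clones, clone 42 being the exception. How many of all rows reached this was not counted. As a share of total miRNA counts, mir-125b was higher with shERH in clones 30, 42 and 52. The log2 change was -0.34 (SE 0.11, adjusted p = 0.0230). The call ended without clone 55 (-0.29, adjusted p = 0.0684) or clone 57 (-0.28, 0.0580), and without the clone block (-0.36, 0.226). It also ended with a mean of at least 100 counts (-0.21, 0.0903) and without the filter (-0.27, 0.0596). With the first control and ERH vectors alone the mir-125b change was -0.49 (adjusted p = 0.00481), and with the second pair alone it was -0.09 (0.711). Whether the pairs differed was not tested. Within an arm, vector 2 against vector 1 did not pass for mir-125b. The difference was -0.22 between control shRNAs (adjusted p = 0.551) and 0.17 between shERH vectors (0.690).

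The chromosome 19 members moved less evenly. With shERH, mir-125a had 13735, 7896, 9975 and 8735 CPM in WT clones and 8500.5, 7371, 10344 and 7985 in BSdel clones, lower than its control in 5 of 8 clones. Its log2 change was -0.14 (95% interval -0.39 to 0.11, adjusted p = 0.388). mir-99b had 3846, 2019.6, 2625 and 3071 CPM in WT clones and 2442, 2172, 3064 and 2378 in BSdel clones, lower in 6 of 8. Its log2 change was -0.26 (95% interval -0.50 to -0.01, adjusted p = 0.0890), and it passed with GC offsets (-0.36, 0.0116). For mir-100 the shERH sums were 10.5, 14.4, 9.40 and 5.998 CPM in WT clones and 7.20, 2.33, 3.93 and 14.0 in BSdel clones, with a log2 change of -0.26 and an interval of -0.86 to 0.33.

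Within WT clones alone 3 of 5 members fell, beside 10.4% of the 613 rows tested that fell and 31.3% that passed in either direction: mir-99a by 0.66, mir-125b by 0.51 and mir-99b by 0.44 on the log2 scale (adjusted p = 0.0114, 0.0256 and 0.0497), with mir-125b and mir-99b turning to 0.11 and 0.17 by spike-in scaling. In mir-99a the call ended without clone 57 (-0.54, adjusted p = 0.107) or 67 (-0.52, 0.0701). In mir-125b it ended without clone 55 (-0.51, 0.108), 57 (-0.44, 0.142) or 67 (-0.41, 0.126), and in mir-99b without 55 (-0.42, 0.202), 57 (-0.35, 0.225) or 67 (-0.39, 0.134). With the shRNA 2 libraries alone none of the 3 passed, at -0.65 for mir-99a (adjusted p = 0.177), -0.33 for mir-125b (0.342) and -0.37 for mir-99b (0.265). Without the block none passed either, with adjusted p of 0.124, 0.161 and 0.230. Leaving out the filter ended the calls of mir-125b (0.0896) and mir-99b (0.215), and a mean of at least 100 counts ended that of mir-99b (0.0701). The most abundant member, mir-125a, changed by -0.36 (adjusted p = 0.102) and did not pass, but it passed with shRNA 1 alone (-0.66, 0.00160), by DESeq2 (-0.50, 0.0259), in the joint fit (-0.41, 0.0405) and without clone 52 (-0.47, 0.0163). On the TMM scale clone 52 changed little in any of the 3 called rows, with log2 changes of -0.04 in mir-99a, -0.06 in mir-125b and -0.02 in mir-99b.

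Within BSdel clones only mir-99a fell among the 5 members, by 0.48 on the log2 scale (SE 0.13, adjusted p = 0.0371), beside 6% of the 633 rows tested that fell and 10.3% that passed in either direction. That call ended without clone 42 (-0.46, adjusted p = 0.130) or 43 (-0.51, 0.0543), without the block (-0.48, 0.280), and in a joint fit over all 16 sums (-0.46, 0.139). It also ended with either vector pair alone, at -0.32 (0.195) with shRNA 1 and -0.73 (0.0562) with shRNA 2. The changes of mir-125b (-0.15), mir-99b (-0.05) and mir-125a (0.10) had adjusted p of 0.366, 0.793 and 0.641, with 95% intervals of -0.37 to 0.08, -0.28 to 0.18 and -0.18 to 0.39.

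Whether the shERH change itself differed between genotypes was tested by the interaction of arm and genotype. No member passed, and of the 667 rows 0 passed by edgeR's quasi-likelihood test, 127 (19%) had an unadjusted p under 0.05 and DESeq2 called 19. The difference of changes, BSdel minus WT, was 0.54 for mir-125a (adjusted p = 0.213), 0.46 for mir-99b (0.226), 0.43 for mir-125b (0.226), 0.25 for mir-99a (0.646) and -0.70 for mir-100 (0.558). Leaving out clone 52 gave 0.71 for mir-125a, 0.63 for mir-99b and 0.61 for mir-125b, which then passed (adjusted p = 0.0367, 0.0418 and 0.0386). Of the 663 rows tested without that clone, 11 passed with a positive difference and 24 with a negative one.

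Under shERH the BSdel and WT clones overlapped in all 5 members, and no member passed. The log2 differences were -0.24 for mir-125a, -0.30 for mir-125b, -0.21 for mir-99b, -0.25 for mir-99a and -0.54 for mir-100, with adjusted p from 0.473 to 0.641. Of the 569 rows tested 1.93% lay apart downward, 0 passed by edgeR, 87 (15.3%) had an unadjusted p under 0.05 and DESeq2 called 11. The 95% interval for mir-125a was -0.68 to 0.19, against -1.10 to -0.38 under control shRNAs.

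BSdel clones with shERH were also set against WT clones with control shRNAs, a comparison that shares its control sums with the deletion and the WT knockdown above. Here 4 of 5 members fell on the TMM scale, of which mir-99b and mir-125a turned positive by spike-ins (0.055 and 0.094). Of the 553 rows tested 16.5% fell and 46.8% passed in either direction. The log2 differences were -0.87 for mir-99a (adjusted p = 0.00952), -0.74 for mir-125b (0.00495), -0.57 for mir-99b (0.0257) and -0.53 for mir-125a (0.0257). For mir-99a, 859.5 to 1225 CPM in BSdel clones with shERH faced 1441 to 2366 CPM in WT clones with control shRNAs, with no overlap on the TMM scale. The same held for mir-125b, with 4476 to 5532 against 6848 to 9439 CPM, and 12.3% of all rows lay apart downward in this way. As shares of total miRNA counts the groups overlapped in both mir-99a and mir-125b. The calls of mir-99a and mir-125b held without any one clone. That of mir-99b ended without clone 34 (-0.51, adjusted p = 0.0693), 43 (-0.55, 0.0579), 57 (-0.52, 0.0641) or 67 (-0.53, 0.0540), and that of mir-125a without 34 (-0.46, 0.0623), 43 (-0.50, 0.0550) or 57 (-0.43, 0.0744). With shRNA 2 alone and with at least 100 counts neither passed, with adjusted p of 0.0553 and 0.0765 for mir-99b and of 0.117 (-0.38) and 0.0765 for mir-125a, and with shRNA 1 alone mir-99b did not pass (0.0727).

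**Figure D3:**
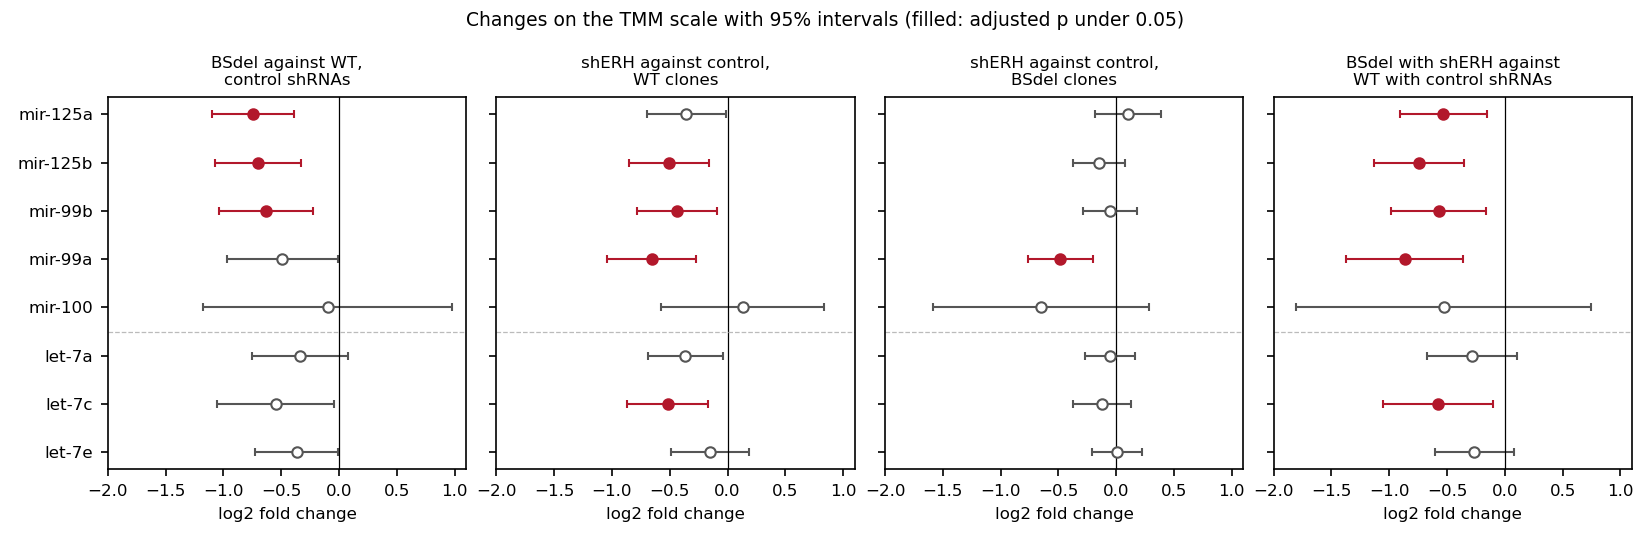
Log2 fold changes on the TMM scale with 95% intervals from edgeR for the 5 members and, below the dashed line, the 3 let-7 partners in 4 comparisons; filled red points passed an adjusted p under 0.05. Filled points appear for 3 members in the deletion, 3 in the WT knockdown, 1 in the BSdel knockdown and 4 in the combination. The wide intervals belong to mir-100, which had 2 to 51 counts per library. Of the filled members, mir-99b and mir-125b in the WT knockdown and mir-99b and mir-125a in the combination lie above 0 by spike-in scaling.

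Of the 3 let-7 partners 1 fell in the knockdown over 8 clones, let-7c, by 0.33 on the log2 TMM scale (adjusted p = 0.0298), against 0.13 by spike-ins. The rows let-7a and let-7e, at -0.22 and -0.09, did not pass. The let-7c call ended without clone 30 (adjusted p = 0.0723), 52 (0.0611), 55 (0.0679) or 57 (0.0812), at changes between -0.32 and -0.27. It ended too without the block (0.214), with shRNA 1 alone (-0.22, 0.175) or shRNA 2 alone (-0.34, 0.143), without the filter (-0.27, 0.117) and with at least 100 counts (-0.20, 0.106). In WT clones let-7c changed by -0.52 (adjusted p = 0.0238), and in the combination by -0.58 (0.0446), which by spike-ins were 0.094 and 0.060. The first of these calls ended without clone 55 (-0.60, adjusted p = 0.0666), 57 (-0.45, 0.122) or 67 (-0.47, 0.0753), and the second without 42 (-0.47, 0.123), 43 (-0.53, 0.0973), 52 (-0.64, 0.0587), 55 (-0.57, 0.0789) or 57 (-0.45, 0.127). The WT call of let-7c ended too without the block (0.134), with shRNA 2 alone (0.113) and without the filter (0.104), and that in the combination with shRNA 1 alone (0.110) and with at least 100 counts (0.0832). Of the other 6 let-7 rows, 4 fell in the knockdown over 8 clones, let-7d (-0.39), let-7g (-0.46), let-7i (-0.39) and mir-98 (-0.73), and let-7b (-0.23) and let-7f (-0.11) did not pass. Both miR-10 rows also fell there, mir-10a by 0.36 and mir-10b by 0.50. These counts stand beside the 16.5% of all 667 rows that fell and the 36.6% that passed in either direction.

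These directions depended on the scaling. With total miRNA counts or the spike-in RNAs as the reference, no member passed in any of the comparisons, against 13 member calls over all comparisons on the TMM scale. In the deletion, mir-125a came to -0.32 by total counts and -0.22 by spike-ins, mir-125b to -0.27 and -0.20, and mir-99b to -0.20 and -0.15, so they stayed negative. The uncalled mir-100 turned positive in the deletion, at 0.36 and 0.17. In the knockdown over 8 clones, mir-99a stayed negative at -0.31 and -0.12. mir-125b went to -0.06 by total counts and to 0.12 by spike-ins, on the other side of 0. The members not called there, mir-99b, mir-100 and mir-125a, turned positive by both scalings. They stood at 0.017, 0.012 and 0.14 by total counts and at 0.21, 0.19 and 0.32 by spike-ins. In the combination by spike-ins, mir-99b (0.055) and mir-125a (0.094) also turned positive, while mir-99a (-0.26) and mir-125b (-0.13) did not.

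The bulk of rows moved with the scaling. The median over all rows in the deletion was -0.03 on the TMM scale, 0.39 by total counts and 0.42 by spike-ins. In the knockdown over 8 clones it was 0.06, 0.33 and 0.52, and in the combination 0.12, 0.60 and 0.73. Measured from that median, the median member in the deletion stood at -0.60 by TMM, -0.59 by total counts and -0.57 by spike-ins. In the knockdown it stood at -0.33, -0.31 and -0.33, and in the combination at -0.69, -0.68 and -0.77. A change of scaling shifts all rows by nearly the same amount, so these differences stay alike by construction. Their likeness is no test of the member calls. The split of calls over all rows moved too. In the deletion it was 101 higher and 38 lower by TMM, 154 and 4 by total counts, 134 and 0 by spike-ins, 108 and 69 by DESeq2 and 50 and 63 with GC offsets. In the knockdown it was 134 higher and 110 lower by TMM, 210 and 36 by total counts, 233 and 22 by spike-ins, 129 and 130 by DESeq2 and 110 and 132 with GC offsets. In the combination it was 168 and 91, 231 and 24, and 238 and 20, with 150 and 143 by DESeq2 and 108 and 129 with GC offsets. In WT clones it was 128 and 64 by TMM, 184 and 27 by total counts, 170 and 11 by spike-ins, 110 and 117 by DESeq2 and 74 and 109 with GC offsets, and in BSdel clones 27 and 38, 86 and 23, and 85 and 17 for the first 3 of these.

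**Figure D4:**
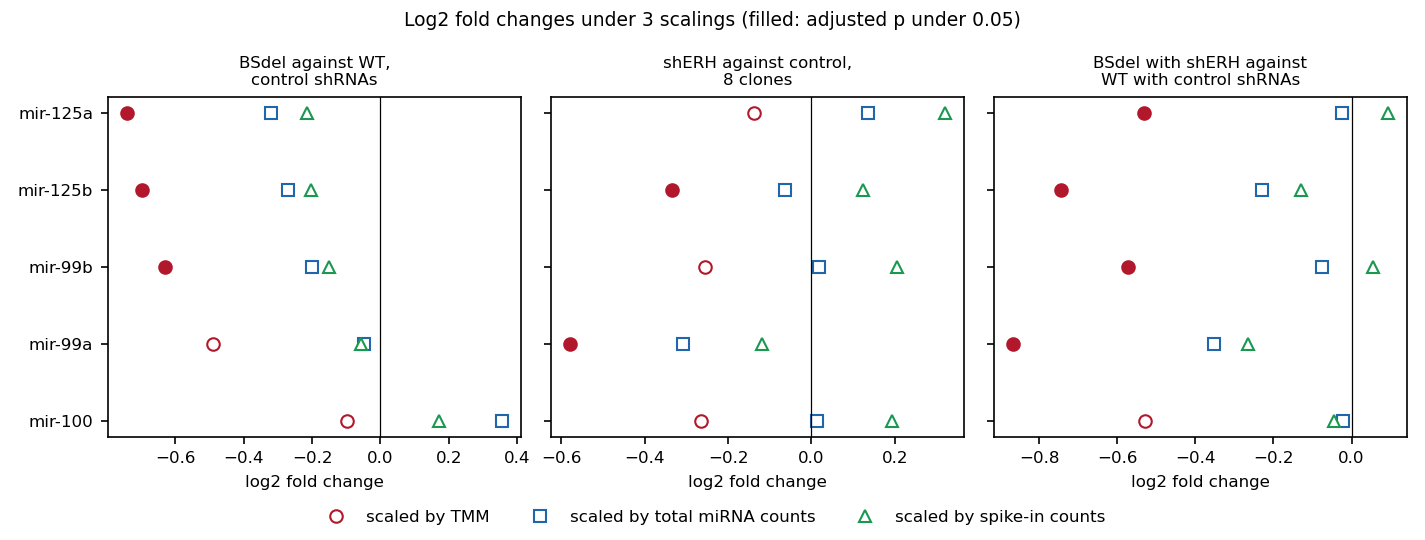
Log2 fold changes of the 5 members under TMM scaling (red circles), total miRNA counts (blue squares) and spike-in counts (green triangles) in the deletion, the knockdown over 8 clones and the combination; filled symbols passed an adjusted p under 0.05. Only red circles are filled, and the blue and green symbols lie to the right of the red one in each row. By spike-ins in the knockdown, mir-99b (0.21), mir-100 (0.19), mir-125a (0.32) and mir-125b (0.12) lie on the positive side.

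Ratios between hairpins of one primary transcript do not depend on library scaling. For this, 5 ratios were formed from the count sums of each clone, and each was tested for the deletion, the knockdown and the difference of knockdown changes by two-sided exact permutation tests, 15 tests in all. None passed after Benjamini-Hochberg adjustment, with adjusted p from 0.469 to 0.859. The smallest p that 70 arrangements of genotype allow is 0.0286, and the sign flips over 8 clones allow 0.00781. For a ratio that stood out alone these become 0.429 and 0.117 after adjustment over 15 tests, so no ratio could pass alone, and the adjusted values say nothing on whether a ratio differed.

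The lowest unadjusted p belonged to mir-125b over the sum of mir-99a and mir-100, the members it shares its 2 transcripts with. As log2 ratios, this was 2.50, 1.82, 1.99 and 2.13 in WT clones 52, 55, 57 and 67 with control shRNAs, and 2.47, 1.90, 2.28 and 2.38 with shERH. In BSdel clones 30, 34, 42 and 43 it was 2.24, 1.77, 1.77 and 1.72 with control shRNAs and 2.09, 2.38, 2.42 and 1.95 with shERH. The ratio was higher with shERH in 6 of 8 clones, all but 52 and 30, with a mean difference of 0.24 ± 0.283 (SD, n = 8, exact sign-flip permutation p = 0.0469, adjusted 0.469). The deletion difference was -0.24 (exact permutation p = 0.286, adjusted 0.589). Both loci of mir-125b enter this ratio, and the mir-100 count was a median of 0.668% of the mir-99a count. The ratio is thus close to mir-125b over mir-99a and does not describe either transcript alone.

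In the chromosome 19 cluster the log2 ratio of mir-125a to mir-99b was 1.73 ± 0.152 in WT and 1.61 ± 0.281 in BSdel clones with control shRNAs (SD, n = 4, exact permutation p = 0.571). With shERH it was 1.81 ± 0.208 and 1.77 ± 0.0230, a mean change of 0.12 that was upward in 5 of 8 clones (exact permutation p = 0.0625, adjusted 0.469). The largest change was in clone 42, from 1.22 to 1.76. Between let-7e and mir-99b, which lie 104 bases apart, the log2 ratio was -0.63 ± 0.300 in WT and -0.38 ± 0.272 in BSdel clones with control shRNAs (n = 4, exact permutation p = 0.257). With shERH it changed by 0.30, 0.48 and 0.50 in WT clones 55, 57 and 67 and by -0.14 in clone 52, and over all 8 clones by 0.17 (exact permutation p = 0.125).

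In the chromosome 21 cluster the log2 ratio of let-7c to mir-99a changed by a mean of 0.25 ± 0.443 with shERH, upward in 6 of 8 clones (n = 8, exact permutation p = 0.172). Its deletion difference was -0.12 (exact permutation p = 0.686). On chromosome 11 the ratio of let-7a to mir-100 spread widely, from 9.34 to 12.4 on the log2 scale. Its changes with shERH ran from -1.18 to 2.40 over the 8 clones, with a mean of 0.07 (exact permutation p = 0.859). The let-7a row also holds reads from loci on other chromosomes, so this ratio does not describe the chromosome 11 transcript alone.

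**Figure D5:**
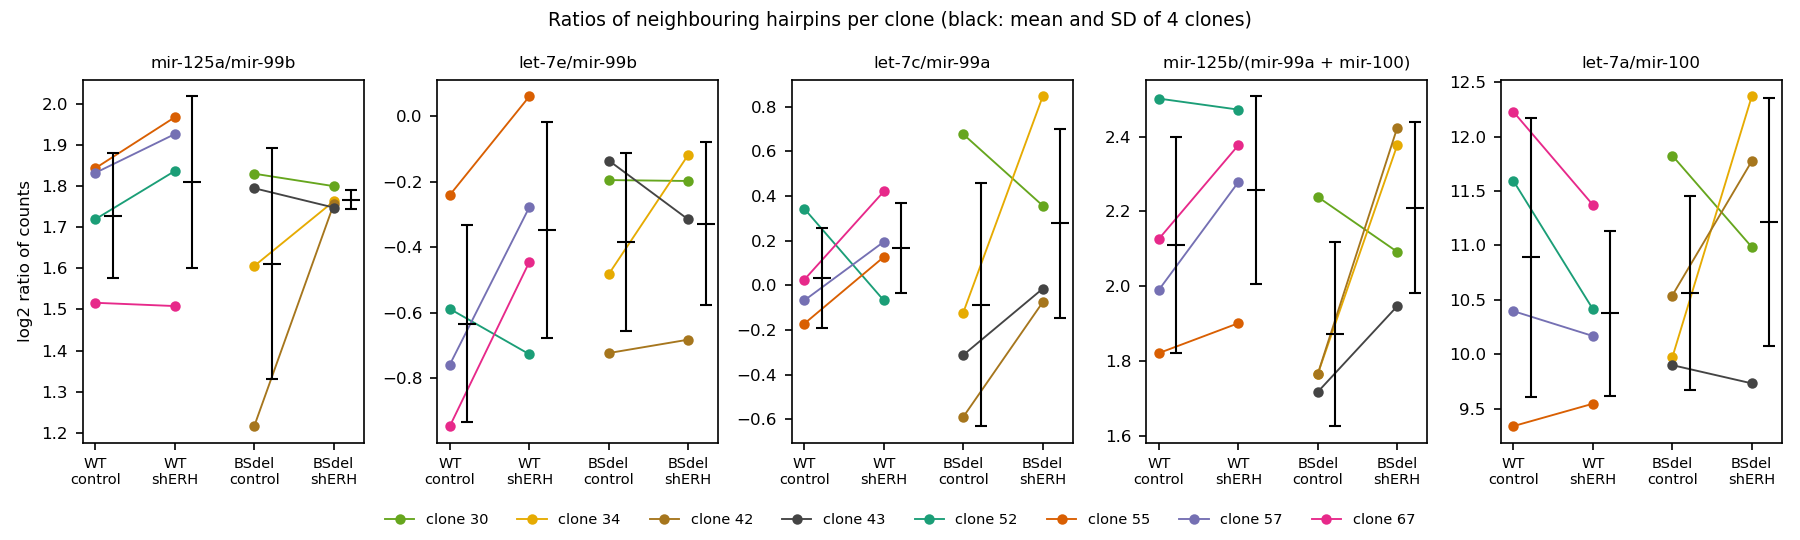
Log2 ratios of rows with hairpins in a shared cluster per clone (points, lines join control and shERH sums of a clone), with black marks for the mean and SD of 4 clones. The axes differ in range and do not start at 0. The ratio of mir-125b to mir-99a plus mir-100 goes up in 6 of 8 clones, and BSdel clones spread from 1.72 to 2.24 with control shRNAs.

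The members differed in how their levels went together over the 16 sums, which share clones and scaling, so the correlations are descriptions. Pearson's r of log2 CPM was 0.84 between mir-99b and mir-125a, neighbours on chromosome 19, and 0.82 between mir-125a and mir-125b, which lie on different chromosomes. It was 0.75 between mir-99a and mir-125b and 0.24 between mir-99a and mir-99b, whose seeds are the same. Among all rows with a mean of at least 10 CPM, the 3 most like mir-125a were mir-140 (0.84), mir-99b (0.84) and mir-125b (0.82). For mir-99b these were mir-140 (0.89), mir-125a (0.84) and mir-191 (0.83), and for mir-125b mir-23a (0.90), mir-125a (0.82) and mir-497 (0.80). For mir-99a they were mir-4286 (0.85), mir-1260b (0.85) and mir-1260a (0.84), with no other member among the 3.

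The most like rows of mir-100 were mir-20a (0.60), mir-873 (0.59) and mir-99a (0.59). The mir-100 count was 0.0939% to 1.24% of the mir-99a count of the same library, with a median of 0.668%. Since the mature sequences differ by 1 base, values of mir-100 are uncertain, and whether its row holds reads of miR-99a was not tested.

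The non-targeting vectors gave the background between vectors. Control shRNA 2 against 1 within clones called 0 of 571 rows by edgeR, with 48 (8.41%) at an unadjusted p under 0.05 and 1 by DESeq2. The largest member difference with adequate counts was that of mir-125b, at -0.22 (adjusted p = 0.551). shERH 2 against shERH 1 called 0 of 578 rows by edgeR, with 37 (6.4%) at an unadjusted p under 0.05 and 1 by DESeq2. There mir-125a was higher by 0.24 with shERH 2 (adjusted p = 0.600). In bulk RNA a lower level in every cell and a loss from some cells cannot be told apart.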

How the data were processed

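Small RNA was sequenced from 32 libraries of 8 clones. The labels' protocols state that 4 reference small RNAs were added to 400 ng of RNA, of which 100 ng entered a QIAseq library. The authors deposited whole-number read counts per precursor (1513 miRNA rows and 4 spike-ins). The submitters' processing notes name SAMtools. The aligner, build, annotation and use of molecular identifiers were not given in the sources used here, so amplification copies may be among the counts.

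Counts of both vectors of an arm were summed per clone (16 sums). edgeR 4.0.16 (R 4.3.3) was run with filterByExpr, TMM scaling and the quasi-likelihood test, with Benjamini-Hochberg adjustment over all rows tested. The clone was a block in knockdown and interaction fits. The labels give each clone all 4 vectors, and deviations of a clone's control and shERH sums from their group means correlated at r of 0.42 to 0.86 in the 8 clones. Log2 CPM used TMM scaling over all rows and a prior count of 2, while each fit computed TMM on its own filtered rows. Ratios had 0.5 added to each count sum and were tested by exact permutation. The fits were tested on simulated data. Within groups, 48 pairs of libraries were compared by chi-square; the lowest value was 48.9 per degree of freedom, and none was taken as a duplicate. Sequences came from RefSeq and folding energies from RNAfold 2.7.2.

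The text names all 5 members, their 3 let-7 partners, the other let-7 and miR-10 rows, and for each member the 3 rows with a mean of at least 10 CPM most correlated with it. Members and lists were chosen with earlier results of these data known. Alternatives were DESeq2 1.42.0, spike-in and total-count scaling, leaving out the filter or requiring a mean of 100 counts, no block, single vectors, a joint fit, leaving out each clone and, chosen after seeing the data, GC offsets. Intervals on few counts cover counting and clone error only as the fit estimates them.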

Additional observations from a re-analysis of the deposited data

Results flagged for a closer look

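Of 60 groups of 4 clones examined for a clone far from the others, 3 held one, and chance alone gives about 1 in 20. The mir-125b change with shERH was 0.12 on the log2 scale in BSdel clone 42, while the other 3 BSdel clones lay between -0.22 and -0.20. The log2 ratio of mir-125b to mir-99a plus mir-100 was 2.24 in BSdel clone 30 with control shRNAs, against 1.72 to 1.77 in the other 3. The log2 ratio of let-7c to mir-99a changed by -0.41 with shERH in WT clone 52, against 0.26 to 0.40 in the other 3 WT clones.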

How the results depend on the processing

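The number of rows passing changed by over 1.5 times, or from 0, under the following alternatives. With the knockdown over 8 clones at 244, a mean of at least 100 counts gave 148, no replicate block 37 and shRNA 2 alone 117, and leaving out each clone gave 159 to 230. In WT clones the 192 became 124, 94 and 20 under the same 3, and 112 to 197 without each clone. In BSdel clones the 65 became 102 by spike-ins, 109 by total counts, 13 without the replicate block, 19 with shRNA 2 alone and 43 in the joint fit, with 30 to 119 without each clone. In the deletion the 139 became 76 with at least 100 counts and 35 with shRNA 2 alone, with 83 to 129 without each clone. Under shERH the deletion's 0 became 11 by DESeq2 and 1 without a filter, with 0 to 1 without each clone. The combination's 259 became 134 with at least 100 counts. The interaction's 0 became 19 by DESeq2, 29 by total counts, 19 without a filter, 29 with at least 100 counts, 30 with shRNA 1 alone and 4 with GC offsets, with 0 to 35 without each clone. Control shRNA 2 against 1 gave 1 by DESeq2 and 1 with at least 100 counts. shERH 2 against 1 gave 1 by DESeq2, 1 by total counts and 3 without a filter, with 0 to 1 without each clone. The setting of at least 100 counts tested fewer rows. These were 314 instead of 667 over 8 clones, 300 instead of 613 in WT clones, 296 instead of 536 in the deletion and 305 instead of 553 in the combination. A lower number under that setting is therefore not by itself a lower share of rows passing. What else moved the numbers was not tested.

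By spike-ins 8 called values turned positive: mir-125b (0.12) and let-7c (0.13) in the knockdown over 8 clones, mir-99b (0.17), mir-125b (0.11) and let-7c (0.094) in WT clones, and mir-99b (0.055), mir-125a (0.094) and let-7c (0.060) in the combination. The spike-in totals of 9139 to 33090 counts limit that scaling. Of 1086 alternative values for members and partners, 958 kept their side of the threshold, 100 no longer passed, 20 newly passed and 8 turned over. Among those that kept their side, 90 changed sign without passing in either fit. Of 180 alternative values of the 15 ratios, 12 changed sign. Their lowest adjusted p was 0.117, the smallest that 1 ratio alone could reach by sign flips over 8 clones. Where this limit or a higher one held, that none passed says nothing about stability. Without the replicate block the knockdown tests had more arrangements, so that 1 ratio alone could have passed there, and none did. Without the replicate block no member passed in any knockdown comparison.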
